A study of Mus musculus with 4 samples.

Results

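Expression of 9 genes of amyloid precursor processing was described in mouse microglia, the resident macrophages of the brain, grown in primary glial culture. The genes were taken by name from the 56832 genes counted in each library: the precursor genes App and Aplp2, the beta-secretase genes Bace1 and Bace2, and the gamma-secretase subunit genes Psen2, Ncstn, Aph1a, Aph1b and Psenen. By GENCODE M21 they lie on chromosome 16 (App and Bace2), 9 (Aplp2, Bace1 and Aph1b), 1 (Psen2 and Ncstn), 3 (Aph1a) and 7 (Psenen). All 9 were present in the count tables and all 9 passed the filter on low counts. RNA was sequenced from 4 libraries of cultured microglia of the C57BL/6 strain, replicates 1 to 4, which form 1 group. The labels give no treatment and no age. Cells were released with trypsin and sorted by flow cytometry, with markers and gates not given in the sources used here, and nothing says whether the libraries came from separate cultures or animals. SDs and p-values below thus describe how far these libraries lie apart, and that distance may be technical. The series was set up to place such cells beside cultured blood progenitors and progenitors grown with glia; cells of those kinds were not analysed here, and no comparison between groups was made.

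The amyloid precursor protein is a membrane protein that is cut by competing routes. Alpha-secretases of the ADAM family cut it inside the amyloid-beta segment, whereas beta-secretase cuts at the start of that segment; the remaining stub is then cut within the membrane by gamma-secretase. Gamma-secretase is an assembly of a presenilin, which holds the active site, with nicastrin, an APH-1 protein and PEN-2, and it also cuts Notch and many other receptors. In brain, APP and BACE1 are best known from neurons, and microglia are better known for taking up and degrading amyloid-beta.

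The segment on which these cuts converge is shown because the precursor, alpha-secretase and beta-secretase levels described below all concern it. It was read from the longest coding isoform of App in GENCODE M21 (build GRCm38, minus strand, 770 codons), where its 126 coding bases lie in 2 exons at chr16:84965670-84965720 and chr16:84962794-84962868. The capitals mark the first codon, before which beta-secretase cuts, and the adjoining lysine and leucine codons, between which alpha-secretases cut.
App amyloid-beta segment: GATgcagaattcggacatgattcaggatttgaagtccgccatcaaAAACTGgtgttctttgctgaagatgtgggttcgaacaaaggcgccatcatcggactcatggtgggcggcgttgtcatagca
Counts were made per gene, so isoforms of App with and without optional exons were not told apart.

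Libraries held 23212183 to 28469813 gene counts, and Pearson's r of log2 CPM (counts scaled to 1e+06 per library) between pairs of libraries was 0.986 to 0.993 across 12879 genes, which are not independent replicates. All 8 microglial markers, Fcrls among them, were at 1 CPM or more in every library, with a summed level of 16539.6 to 17539.7 CPM. Summed levels were 132 to 223 CPM for astrocyte markers (7 of 8 at 1 CPM or more in every library, none at 0; Gfap and Aqp4 highest by TPM), 72.9 to 124 CPM for endothelial and mural markers (4 of 8, none at 0; Acta2 and Tagln highest by TPM), 32.3 to 42.2 CPM for oligodendrocyte lineage markers (2 of 8, Mog at 0; Cspg4 and Olig2 highest by TPM) and 14.5 to 20.1 CPM for neuronal markers (3 of 8, Snap25 at 0; Map2 and Stmn2 highest by TPM). The labels give the sex as female, yet beside Xist at 300.2 CPM ± 42.9 (SD, n = 4) the Y-linked gene Ddx3y was at 36.2 CPM ± 5.44, with a lowest library of 30.03 CPM. The 9 genes together took 0.147%, 0.154%, 0.149% and 0.146% of the gene counts in replicates 1 to 4.

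Both precursor genes were abundant and the beta-secretase genes were low. Levels of different genes are compared as TPM (each count is divided by the length of its gene, and every library is then rescaled to the same total), and the length used is that of the merged exons of all isoforms. The median of the 9 genes was 129.6 TPM, beside a median of 17.9 TPM over the 12503 tested genes that had a length. That comparison is a description, since these genes were chosen by name.

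App, the gene of the amyloid precursor, was at 139, 139, 137 and 131 TPM in replicates 1 to 4, a mean of 136 TPM ± 3.65 (SD, n = 4). The 4 libraries lay close together, with replicate 4 lowest, and 90.2% of 11749 tested protein-coding genes had a lower mean TPM. App rested on 12244 to 14404 counts a library and had the most counts of the 9 genes. Its level in CPM was 524, 535, 528 and 506, with a coefficient of variation of 2.33%, where counting error alone gives 0.868%. The 8 astrocyte markers summed to 132 CPM in replicate 1 and to 185 to 223 CPM in the others. App lay between -0.05 and 0.03 around its mean on the log2 CPM scale. The part of astrocyte RNA in the App level was not tested.

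Aplp2 encodes the amyloid precursor-like protein that is closest to App in its broad expression and lacks the amyloid-beta segment. It was at 216, 231, 224 and 226 TPM in replicates 1 to 4, a mean of 224 TPM ± 6.00 (SD, n = 4), and was lowest in replicate 1. App lay below Aplp2 in all 4 libraries by this length, with a log2 TPM difference, App over Aplp2, of -0.72 ± 0.06 (SD, n = 4; two-sided exact permutation of signs, p = 0.125, adjusted p = 0.188 over 12 comparisons). With 4 libraries no smaller p than 0.125 can be reached, so none of these differences can pass 0.05. The order turned with the length used. GENCODE M21 lists 11 App transcripts whose merged exons span 12996 bases, while the 6 protein-coding ones average 3975.5 bases; for Aplp2 the lengths are 5875 and 3140.2 bases. Per mean coding transcript length App was at 229 TPM ± 5.90 and Aplp2 at 215 TPM ± 5.69 (SD, n = 4), and the difference was 0.09 on the log2 scale, and positive in all 4 libraries. Which precursor transcript was the more abundant therefore cannot be told from these counts.

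**Figure D1:**
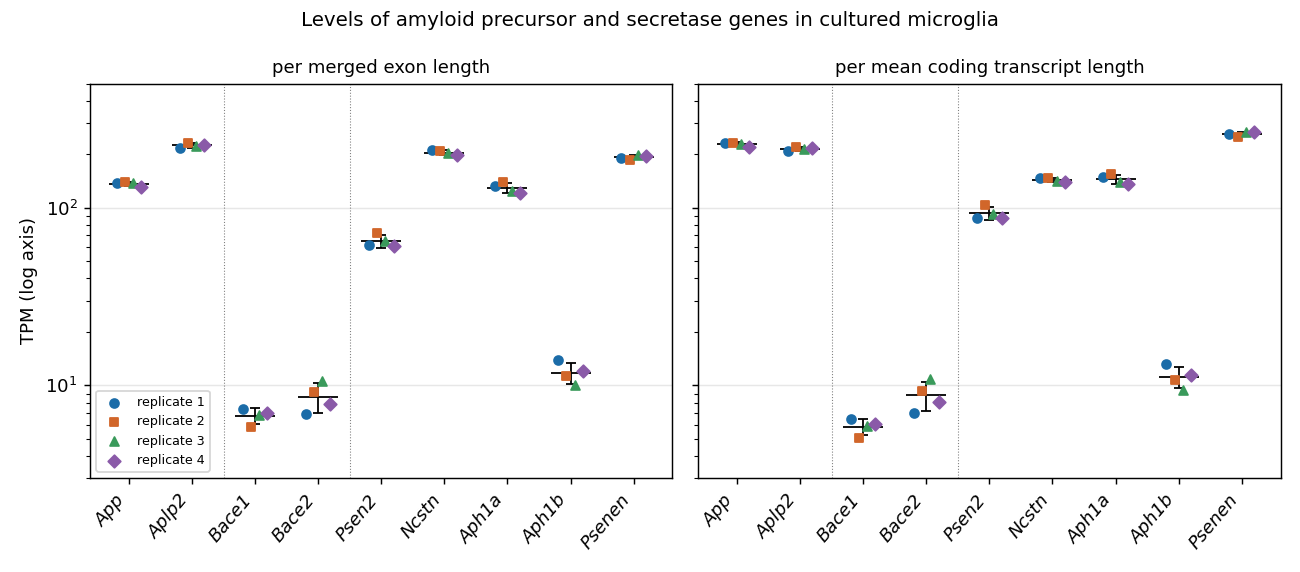
Level of each gene in TPM on a log axis, 1 point per library (replicates 1 to 4), with mean and SD as bar and whiskers; the left panel divides by merged exon length and the right panel by mean coding transcript length. Bace1, Bace2 and Aph1b sit near 10 TPM in both panels, and App moves from a mean of 136 to 229 TPM between them.

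The beta-secretase genes were among the lowest of the 9. Bace1, the gene of the main beta-secretase of neurons, was at 7.40, 5.81, 6.83 and 6.97 TPM in replicates 1 to 4, a mean of 6.75 TPM ± 0.672 (SD, n = 4) from 256 to 374 counts a library. Replicate 2 was lowest, and 27.3% of tested protein-coding genes had a lower mean TPM. Of the exon bases of Bace1, 32.5% are overlapped by other genes on the opposite strand, among them Rnf214; reads there could have been discarded or given to a neighbour, as the strand setting is not given. Divided only by exon bases that no other gene overlaps, an alternative added after the annotation was seen, Bace1 was at 10.01 TPM ± 0.996 (SD, n = 4). Its counts were kept whole and the library was not rescaled, so this value takes all reads over the overlapped bases as lost.

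Bace2, the homologue of Bace1, was at 6.86, 9.16, 10.6 and 7.89 TPM in replicates 1 to 4, a mean of 8.63 TPM ± 1.63 (SD, n = 4). It was lowest in replicate 1 and highest in replicate 3. The log2 TPM difference, Bace1 over Bace2, was -0.34 ± 0.37 (SD, n = 4), with Bace1 lower in 3 of 4 libraries (exact permutation, p = 0.25, adjusted p = 0.25 over 12 comparisons), a difference smaller than its own spread. Over exon bases that no other gene overlaps it turned to 0.23, positive in 2 of 4 libraries. The order of the pair was not resolved.

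Alpha-secretase genes were all well above Bace1 and Bace2. Adam10, the main alpha-secretase of neurons, was at 237 TPM ± 27.2 (SD, n = 4), Adam9 at 202 TPM ± 14.1 and Adam17, which also releases TNF from the cell surface, at 135 TPM ± 6.97. Summed over the 3 genes the alpha-secretase level was 635, 545, 531 and 588 TPM in replicates 1 to 4, while Bace1 and Bace2 summed to 14.3, 15.0, 17.5 and 14.9 TPM. The sums did not overlap in any library. The log2 ratio, alpha-secretase over beta-secretase sum, was 5.22 ± 0.23 (SD, n = 4), a ratio of 37.4, with the same sign in all 4 (exact permutation, p = 0.125, adjusted p = 0.188). Bace1 made up a mean of 44.2% of the beta-secretase sum. For Adam10 alone over Bace1 alone the log2 ratio was 5.13 ± 0.12 (SD, n = 4). These are transcript levels, and enzyme activity and the sites cut by each enzyme were not measured.

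**Figure D2:**
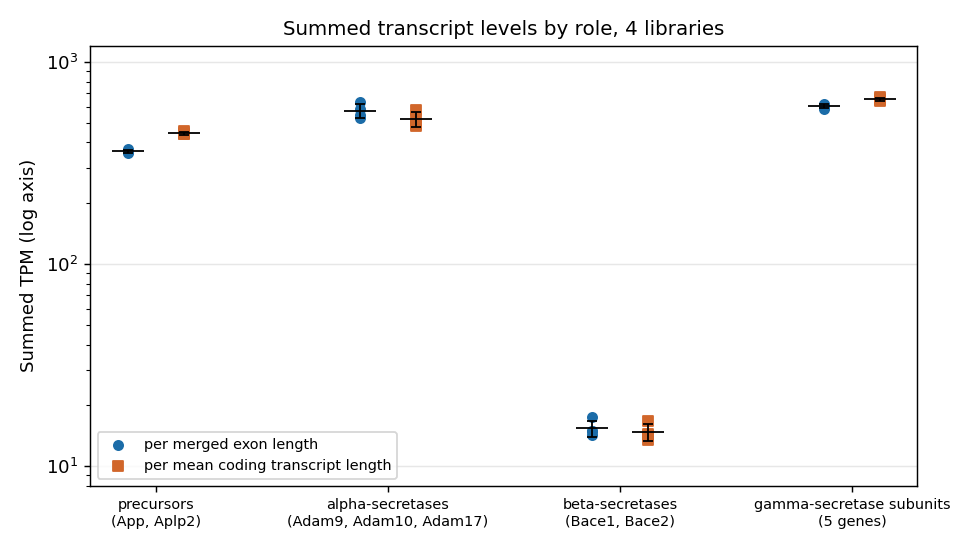
Summed TPM on a log axis of precursor, alpha-secretase, beta-secretase and gamma-secretase subunit genes, 1 point per library for each of 2 length definitions, with mean and SD. The beta-secretase sum lies between 13.5 and 17.5 TPM in all libraries under both lengths, and the other 3 sums lie above 300 TPM.

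The gamma-secretase subunit genes differed widely among themselves, with a ratio of 17.3 between the highest and the lowest mean TPM. Ncstn encodes nicastrin, the large subunit with the extracellular domain that meets the substrate. It was at 210.2, 208.5, 202.2 and 197.2 TPM in replicates 1 to 4, a mean of 204.5 TPM ± 5.98 (SD, n = 4), so its libraries spanned a narrow range with replicate 4 lowest. Psenen encodes PEN-2, the smallest subunit, which helps the presenilin to mature. It was at 191.6, 185.2, 197.5 and 195.5 TPM, a mean of 192.5 TPM ± 5.445 (SD, n = 4), with replicate 2 lowest. Psen2 encodes presenilin 2, a catalytic subunit found mainly in late endosomes and lysosomes. It was at 61.4, 72.3, 64.8 and 60.9 TPM, a mean of 64.9 TPM ± 5.28 (SD, n = 4), with replicate 2 highest.

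The APH-1 scaffold was represented mainly by Aph1a. It was at 133, 139, 125 and 121 TPM in replicates 1 to 4, a mean of 129.6 TPM ± 8.01 (SD, n = 4), while Aph1b was at 13.8, 11.3, 10 and 12.1 TPM, a mean of 11.8 TPM ± 1.605 (SD, n = 4). The groups of values did not overlap, and Aph1a made up 90.6%, 92.5%, 92.6% and 90.9% of the TPM of the pair in the 4 libraries. The log2 TPM difference, Aph1a over Aph1b, was 3.46 ± 0.20 (SD, n = 4), a ratio of 11, and positive throughout (exact permutation, p = 0.125, adjusted p = 0.188). Mice carry another copy, Aph1c, beside Aph1b on chromosome 9. It had 599, 406, 413 and 574 counts, close to the 561, 404, 355 and 528 counts of Aph1b.

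Aph1b and Aph1c are alike enough to share reads, which bears on both values. Their coding sequences of 771 and 774 bases are identical at 742 of 771 aligned bases, 96.2%, and share an unbroken stretch of 341 bases. Of the 50-base words in Aph1b coding transcripts, 19.5% also occur in Aph1c, so reads from these could have been dropped as aligning to several places. The 60-base coding window in which they differ most, by 11 bases, is shown because reads over it can separate the copies. Capitals mark the bases that differ (GENCODE M21, GRCm38, minus strand, chr9:66795302-66795361 for Aph1b and chr9:66834535-66834594 for Aph1c).
Aph1b window: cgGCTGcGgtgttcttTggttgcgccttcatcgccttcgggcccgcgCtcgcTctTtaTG
Aph1c window: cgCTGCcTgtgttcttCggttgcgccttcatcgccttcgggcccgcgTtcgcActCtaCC
With the copies summed, an alternative added after their values were seen, Aph1b plus Aph1c was at 24.4 TPM ± 3.105 (SD, n = 4) and the log2 difference, Aph1a over that sum, was 2.41 ± 0.20. Of the 50-base words of the other genes, 48.2% of those of Aph1a also occur in some other gene (25.9% in Gm15429), 32.1% of those of Psenen (25.1% in Gm12396), 30.1% of those of Bace1, 5.15% of those of Ncstn (all in Copa) and 1.17% of those of App, while Aplp2, Bace2 and Psen2 share none. Words were matched on both strands, so those that Bace1 shares with Rnf214 and Ncstn with Copa come from exons overlapping on the opposite strand. For Bace1 this is the overlap given above. The values are uncertain to the extent that reads over shared words were dropped or given to another gene.

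By mean TPM the order was Aplp2, Ncstn, Psenen, App, Aph1a, Psen2, Aph1b, Bace2 and Bace1. Neighbours were paired by sorting these same means, so the direction of each mean difference was set beforehand and the p-values below are descriptive. Aph1b over Bace2 (log2 difference 0.46 ± 0.47, SD, n = 4) and Bace2 over Bace1 (0.34 ± 0.37) did not differ beyond their spread, each positive in 3 of 4 libraries and at p = 0.25 by exact permutation. App over Aph1a was 0.08 ± 0.06, also positive in 3 of 4 libraries, a mean 1.27 times its SD (exact permutation, p = 0.25). Ncstn over Psenen was 0.09 ± 0.08 and Aplp2 over Ncstn was 0.13 ± 0.07, positive in every library. These means were 1.14 and 2 times their SDs, and their sizes depend on gene length. Per coding transcript length Ncstn lay below Psenen instead, by -0.86. Over exon bases that no other gene overlaps, Ncstn over Psenen was 0.02, positive in 2 of 4 libraries. Aplp2 over Ncstn was then 0.06, positive in 3 of 4. The larger steps were Psenen over App (0.50 ± 0.07), Aph1a over Psen2 (1.0 ± 0.08) and Psen2 over Aph1b (2.46 ± 0.27), which no library went against (exact permutation, p = 0.125, adjusted p = 0.188). The place of App also depends on gene length. Per coding transcript length Psenen over App was 0.19 and App over Aph1a was 0.66, each positive in all 4 libraries. Under either length Psen2, Aph1b, Bace2 and Bace1 were the lowest 4, in that order.

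The libraries were then compared gene by gene. Of the 9 genes, 0 varied between libraries more than genes of like abundance (edgeR deviance test, Benjamini-Hochberg adjusted p under 0.05 over all 12879 genes), beside 1.14% of all tested genes. At an unadjusted p under 0.05 it was 1 of 9, Bace2, beside 6.78% of tested genes, and DESeq2 marked 0 of the 9 as dispersion outliers. The same edgeR test at adjusted p under 0.05 called 1 of 8 microglial markers, P2ry12, at 163.6 to 248.8 CPM. It also called 2 of 7 tested astrocyte markers (Gfap and Slc1a3) and 1 of 5 tested endothelial and mural markers (Acta2). Of the oligodendrocyte lineage and neuronal markers it called 0 of 3 tested in each list. The SD of log2 CPM had a median of 0.08 over the 9 genes and 0.13 over all tested genes, whose median level was also lower, 23.5 CPM beside 82.9 CPM for the 9. The highest library exceeded the lowest by a ratio of 1.06 for App, 1.05 for Ncstn, 1.07 for Psenen and 1.085 for Aplp2, and by 1.14 for Aph1a, 1.199 for Psen2, 1.25 for Bace1, 1.36 for Aph1b and 1.58 for Bace2. The 3 genes with the fewest counts had the widest ratios; counting error alone gives a coefficient of variation of 4.46% for Bace2, whose own was 19.4%.

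Bace2 had the widest spread, at 15.7, 21.4, 24.8 and 18.5 CPM in the order of the replicates (edgeR unadjusted p = 0.03, adjusted p = 0.59). Its libraries stood in the same order as those of the endothelial and mural markers, whose summed level was 72.9, 97.6, 124 and 82.05 CPM in replicates 1 to 4, of the astrocyte markers, at 132, 213, 223 and 184.5 CPM, and of the neuronal markers, at 14.5, 18.8, 20.1 and 17.0 CPM. Single markers did not all follow these sums. The endothelial and mural markers Acta2, Tagln, Kdr and Pdgfrb were highest in replicate 3. Pecam1, Cldn5 and Rgs5 were instead highest in replicate 1, at 17, 16 and 13 counts. Of the neuronal markers, Map2 and Stmn2 were lowest in replicate 1, while Tubb3 had 51 counts there and 2 to 5 in the others. Set against the summed levels, Bace2 was 20.1% to 22.5% of the endothelial and mural level, 10.01% to 11.9% of the astrocyte level and 108.4% to 123.3% of the neuronal level. It ranged from 0.0897% to 0.147% of the microglial marker level and from 0.909% to 1.99% of the immediate-early response level. Against the oligodendrocyte lineage level, which was highest in replicate 2 and lowest in replicate 4, it was 47.2% to 64.6%. The part of such cells in the Bace2 level was not tested. In bulk RNA, fewer cells of a type and less RNA per cell cannot be told apart.

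Aph1b, next in spread, was highest in replicate 1 and lowest in replicate 3, its levels being 20.8, 17.2, 15.3 and 18.55 CPM (edgeR unadjusted p = 0.19, adjusted p = 1). Aph1c was at 22.2, 17.3, 17.8 and 20.2 CPM, also highest in replicate 1. Immediate-early response genes respond to handling of cells. Of the 10 listed, 9 were at 1 CPM or more in every library and none at 0, with Junb and Jun highest by TPM. They summed to 1730.4, 1072.6, 1286.0 and 1068.4 CPM in replicates 1 to 4, and 7 of 10 passed the spread test, beside 1.14% of all tested genes. The order of libraries for Aph1b was the reverse of that of the astrocyte, neuronal, and endothelial and mural sums. The part of these in the Aph1b level was not tested.

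None of the 9 genes passed the spread test, so likeness to other genes is given for the 2 with the widest spread, as a root mean square difference of log2 CPM deviations over the 4 libraries among 8553 genes at 10 CPM or more. The genes most like Bace2 were Fmod, which encodes the matrix protein fibromodulin, at 0.0161, Myh10, a nonmuscle myosin heavy chain gene, at 0.0221, and Zbtb12 at 0.0240, where the own spread of Bace2 is 0.244. Those most like Aph1b were Slmap at 0.00927, 4932438A13Rik at 0.00982 and Eea1, an early endosome tethering gene, at 0.0122, beside its own spread of 0.160. These genes were picked for their likeness, so it is a description.

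**Figure D3:**
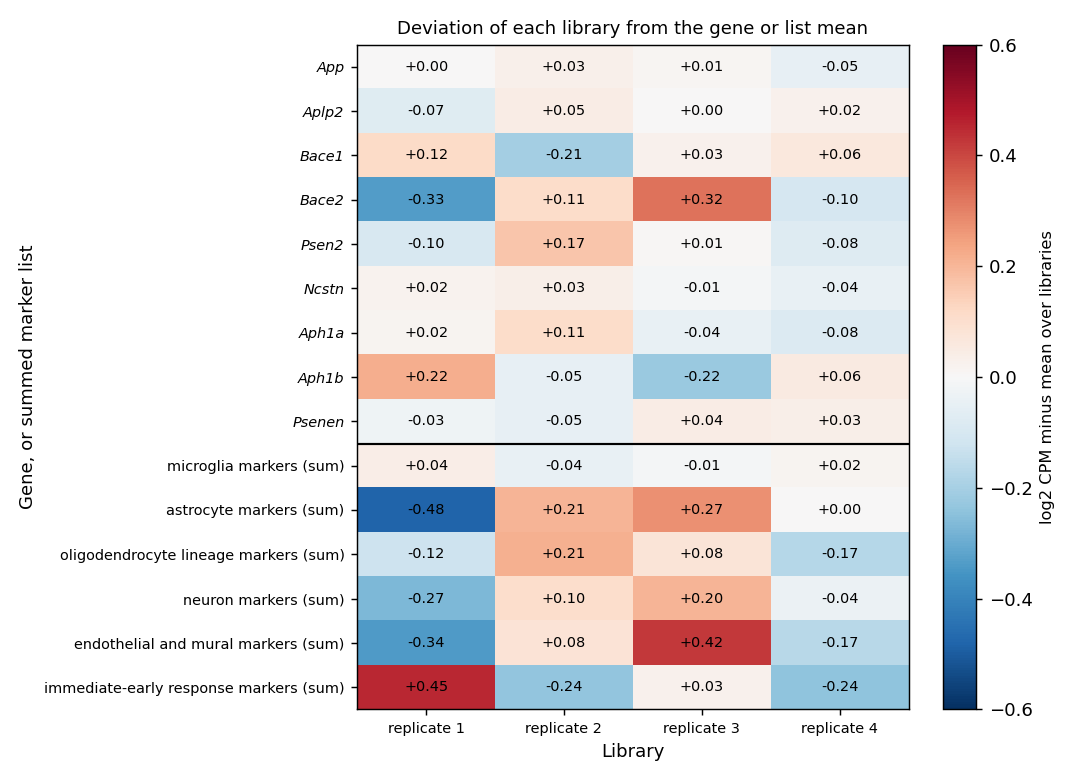
Deviation of each library from the mean over the 4 libraries, on the log2 CPM scale, for each of the 9 genes (above the line) and for the summed level of each marker list (below it); red is above and blue below the mean. App, Ncstn and Psenen stay between -0.05 and 0.04, and Bace2 runs from -0.33 in replicate 1 to 0.32 in replicate 3, as the endothelial and mural sum does from -0.34 to 0.42.

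Other genes of the pathway were read from 8 lists, which hold 129 different genes. Of these, 115 were at 1 CPM or more in every library, and of 119 tested 1 passed the spread test, beside 1.14% of all tested genes, and 14 had an unadjusted p under 0.05, beside 6.78%. The gene that passed was Clu, which encodes the amyloid-beta binding chaperone clusterin and is also an astrocyte product, at 152, 233.5, 262 and 207 CPM from replicate 1 through 4 (adjusted p = 1e-05 in edgeR). It was lowest in replicate 1 and highest in replicate 3, as Bace2 was.

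Among 3 other precursor-related genes, Itm2b, whose product binds the amyloid precursor and is itself an amyloid precursor in familial dementia, was at 2589.8 TPM ± 107 (SD, n = 4) and its relative Itm2c at 1077.3 TPM ± 50.03. Aplp1, the neuronal member of the App family, was at 18.85 TPM ± 2.82. Of 12 genes listed for adaptors of the precursor tail and their partners, 10 were at 1 CPM or more in every library, with a median of 21.4 TPM. The endocytic adaptor Dab2 was highest at 393.5 TPM ± 15.7. It was followed by Apbb1ip, named for a partner of the adaptor APBB1 (158.5 TPM ± 6.81), and Shc1 (65.6 TPM ± 4.43). Apba2 (1.17 TPM ± 0.406) and the neuronal adaptor Dab1 (0.631 TPM ± 0.339) were lowest.

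Of 26 genes of precursor and secretase trafficking, 25 reached 1 CPM in every library, with a median of 87.4 TPM. The endocytic receptor Lrp1 was highest at 824 TPM ± 69.1 (SD, n = 4), followed by the small GTPase Arf6 (427 TPM ± 22.6) and the reticulon Rtn4 (409.8 TPM ± 34.2), while the sorting receptor Sorcs1 (0.723 TPM ± 0.191) and Lrp1b (0.0931 TPM ± 0.0192) were lowest. Of 28 secretase modulators, 26 did so, with a median of 54.9 TPM. Arrb2, an arrestin that binds the APH-1 subunit, was at 669 TPM ± 37.4, Bsg at 624 TPM ± 26.1 and Tspan14, a partner of ADAM10, at 303.5 TPM ± 14.2. The metalloprotease inhibitor Timp1 (0.789 TPM ± 0.665) and the receptor Gpr3 (0.0911 TPM ± 0.0806) were lowest.

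Of 29 genes listed as secretase substrates, 25 were at 1 CPM or more in every library, with a median of 9.23 TPM. The highest were receptors expressed by microglia, Csf1r (2829.9 TPM ± 108), Trem2 (778.5 TPM ± 13.4) and Axl (645 TPM ± 47.3); Csf1r is also on the microglial marker list. The nerve growth factor receptor Ngfr had 3 counts in replicate 4 and 0 in the others. Of 21 genes of amyloid-beta degradation and uptake 17 reached 1 CPM in every library, with a median of 56.0 TPM, led by Apoe (50092.2 TPM ± 1677.7), Ctsd (13830.7 TPM ± 537) and Ctsb (3740.0 TPM ± 181). The gelatinase Mmp9 was at 0.109 TPM ± 0.192 and plasminogen, Plg, had 0 counts.

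The last list held related intramembrane proteases and Aph1c, of which 6 of 7 reached 1 CPM in every library, with a median of 29.2 TPM. Sppl2a, a protease of the lysosomal membrane that cuts the invariant chain in mouse, was at 96.1 TPM ± 5.84 (SD, n = 4), H13, the signal peptide peptidase, at 73.05 TPM ± 2.62 and Sppl3 at 41.3 TPM ± 2.76. Mbtps2, the protease that releases sterol-regulated transcription factors, was at 12.6 TPM ± 0.568, and Sppl2c had 0 counts.

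**Figure D4:**
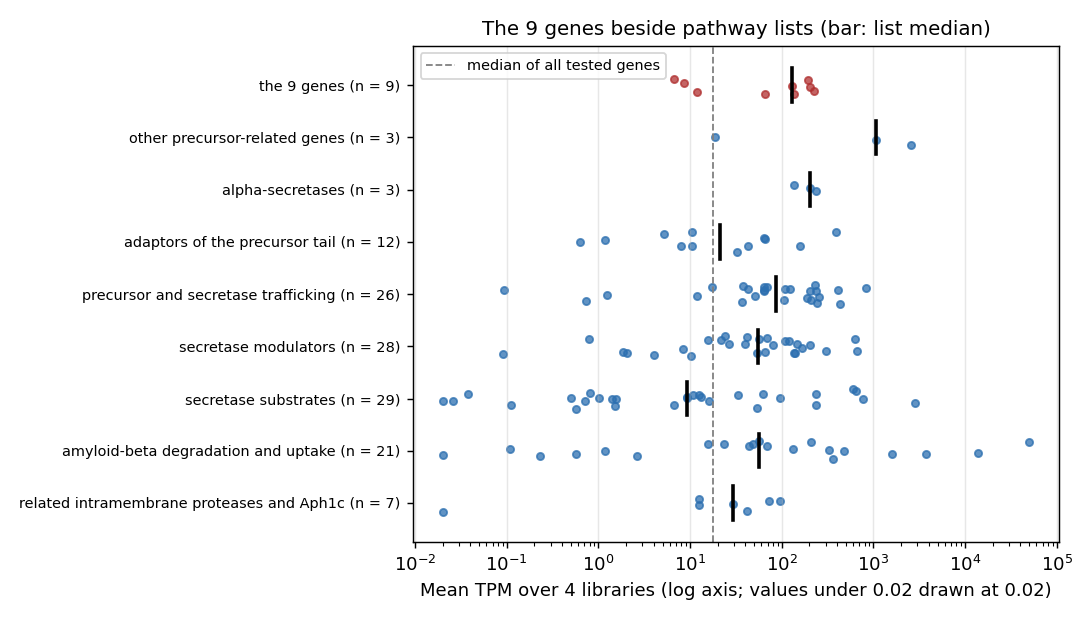
Mean TPM over the 4 libraries on a log axis for each of the 9 genes (red) and each gene of 8 pathway lists (blue); black bars are medians and the dashed line is the median of all tested genes, 17.9 TPM. The 9 genes fall into 6 above 60 TPM and 3 below 12 TPM.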

How the data were processed

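RNA was sequenced from 4 libraries of sorted cultured microglia. The authors deposited raw read counts per gene symbol, 1 table per library and not normalized. HTSeq 0.11.2, SAMtools 1.16.1 and STAR 2.7.10a are named with build mm39 (GRCm39), per the submitters' processing notes. Annotation release, strand setting and treatment of overlapping genes: not given in the sources used here. Summary lines that name no gene, 5 per library and 11.63% to 12.02% of its total, were left out. Library totals were 27012285, 23436924, 23212183 and 28469813 counts; a count of 0 allows up to 3 counts, 0.105 to 0.129 CPM, for counting error only.

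TPM was computed from the deposited counts with merged exon lengths of GENCODE M21 (GRCm38), matched by symbol for 89.1% of symbols holding 98.8% of counts. Hm13 of the lists was matched as H13 through RefSeq synonyms. For the spread between libraries, edgeR 4.0.16 under R 4.3.3 fitted 1 mean per gene (TMM, filterByExpr, trended dispersion), and the deviance was referred to chi-square on 3 degrees of freedom with Benjamini-Hochberg adjustment at 0.05; the script was tested on simulated data. DESeq2 1.42.0 was an alternative. Differences between genes were tested over the libraries by exact sign-flip permutation.

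Members and lists were chosen with earlier results of these data known. Besides the 9 genes, the text names all alpha-secretases, the 3 highest and 2 lowest genes of each other list, any past the spread test, and the 2 highest of each marker list, and for likeness the 3 nearest genes of the 2 most variable members. Some genes that the rule picks are not reported here. Genes outside that rule (Mog, Snap25, Kdr, Pdgfrb, Pecam1, Cldn5, Rgs5, Tubb3, Xist, Ddx3y, Aph1c, Rnf214, Copa, Gm15429 and Gm12396) were named after their values were seen. Coding-sequence identity of Aph1b and Aph1c took the place of a planned protein identity. Alternatives were other gene lengths, scalings, filters, pseudocounts, dispersions and leaving out each library.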

Additional observations from a re-analysis of the deposited data

Results flagged for a closer look

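In each of 59 results with 4 library values, the gap between an outlying library and its nearest neighbour was compared with the whole range, and 6 stood out; chance alone marks about 1 in 20 such results. None was a value of the 9 genes or of a difference between them. Replicate 2 stood apart for Arf6, at 461.3 TPM against 415.4 to 416.5 TPM, for Rtn4, at 460.6 TPM against 388.4 to 398.7 TPM, and for Ctsb, at 4010.3 TPM against 3620.1 to 3667.0 TPM. Replicate 3 stood apart for Bsg, at 662.6 TPM against 607.1 to 613.3 TPM. At the floor of detection, Ngfr was at 0.103 TPM in replicate 4, from 3 counts, and at 0 elsewhere. Mmp9 was above that floor in replicate 1 only, at 0.3958 TPM from 11 counts, against 0 to 0.04073 TPM.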

How the results depend on the processing

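Gene length decided the order of the precursors. App over Aplp2 turned from -0.72 to 0.089 on the log2 scale with the mean length of protein-coding transcripts and to 0.43 on CPM without length; the construction of these scales, with 12996 merged exon bases for App, accounts for the turn. Without exon bases overlapped by other genes, Bace1 over Bace2 turned to 0.23 (Bace2 over Bace1 to -0.23) and App over Aph1a to -0.11. Ncstn over Psenen turned to -0.86 with coding transcript length, and on CPM Psenen over App turned to -2.85 and Aph1b over Bace2 to -0.15. The alpha-secretase over beta-secretase ratio and Aph1a over Aph1b kept their sign under every alternative run for them, and no sign turned in these comparisons when any 1 library was left out. The count of the 9 genes past the spread test was 0 under all of the scalings, filters and dispersions run and without each library; at an unadjusted p under 0.05 Bace2 was no longer counted without replicate 1, without replicate 3 or with no filter. Of all genes, 147 passed, against 46 without replicate 1, 58 without replicate 3, 532 with a common dispersion and 69 as DESeq2 dispersion outliers. No paired analysis was possible because there is 1 group. Exon overlap assumes counting without strand, and the lengths come from another build and annotation than the counts. The lowest member count, 256 for Bace1, limits how small a change in the beta-secretase genes could be seen.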
